A study of Mus musculus with 6 samples.

Results

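Elastic fibres let a tissue stretch and recoil. They consist of a core of crosslinked elastin laid down on a scaffold of microfibrils, which are built from fibrillins and from small glycoproteins that bind them. Fibulins join elastin to the microfibril and help to place the crosslinking enzymes. In skeletal muscle such fibres run in the connective tissue sheaths and in the walls of blood vessels. The genes described here were Eln, Fbn1, Fbn2, Fbln1, Fbln2, Fbln5, Efemp2, Mfap2, Mfap4 and Mfap5. Their probe sets, the sets of short oligonucleotides with which an array reads a transcript, were those that the platform's gene table assigns to exactly 1 of these symbols. This gave 16 of 45037 probe sets and 8 of the 10 genes, and Fbn1 and Efemp2 were not analysed here.

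Total RNA of the gastrocnemius, the large calf muscle, of normal male C57B1/6 mice (strain as spelled in the labels) was hybridised to Affymetrix mouse arrays, 1 sample per array. Aged muscle gave 3 arrays (replicates 51, 52 and 53) and young muscle gave 3 (replicates 1, 2 and 3). The sources used here give no ages. Nor do the labels tie the arrays of a group to different mice. The p-values therefore cover the spread among these arrays, which may be only technical.

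Each array had the same trimmed mean signal by the authors' scaling, and its median signal lay between 637 and 833. The labelled tissue was checked with 8 markers of skeletal muscle fibres. All 8 were bright, the dimmest having a mean log2 signal of 15.84, against a minimum of 9.08 (a signal of 540) that a probe set needed to be tested. Fluidics station 1 washed aged replicate 51 and all young arrays, and station 2, under another protocol name, washed aged replicates 52 and 53. The log2 ratio of 3 prime to 5 prime control signal, a measure of RNA quality, was 2.11, 2.00 and 2.86 in aged muscle, against 1.71, 1.77 and 1.75 in young muscle. Every aged array had a higher ratio than every young array, so a change with age cannot be told apart from one with RNA quality. Each change is the log2 signal in aged muscle minus that in young muscle, with the standard error from limma (n = 3 per group). A probe set passed at an adjusted p under 0.05, adjusted by Benjamini-Hochberg over every probe set tested. In whole muscle, fewer cells of a type and less RNA per cell cannot be told apart.

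The question of the comparison is how transcript levels in this muscle differ with age. Among elastic fibre and microfibril genes the microfibril glycoprotein gene Mfap5 fell, and it was 7.65-fold higher in young muscle (log2 change -2.94). Its aged signals were dim, and the change was -2.36 with a pseudocount and -1.78 with the 3 prime to 5 prime ratio as a covariate (adjusted p = 0.381). No other gene of the group passed. By their brightest probe sets, signals of Eln, Fbln5, Mfap2 and Mfap4 averaged lower in aged muscle, and those of Fbn2, Fbln1 and Fbln2 averaged higher. Of the 16 probe sets 10 were bright enough to be tested, 1 fell, 0 rose and 9 did not pass. Of all 22519 tested probe sets 0.742% were called lower and 1.05% in either direction. At an unadjusted p under 0.05, 4 of the 10 were lower, both of Mfap5 and the brighter ones of Mfap2 and Fbln5, and 1 of Fbln1 was higher. Over all tested probe sets 5.61% were lower and 4.43% higher at that p. Both Mfap5 probe sets and both Mfap2 ones had aged means below the minimum for testing, so they were tested only through their young signals. With each gene taken at its brightest probe set, whether tested or not, the median change of the 8 genes was -0.81, with a range of -2.94 to 1.85. The same median over all 18193 named genes was 0.05.

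**Figure D1:**
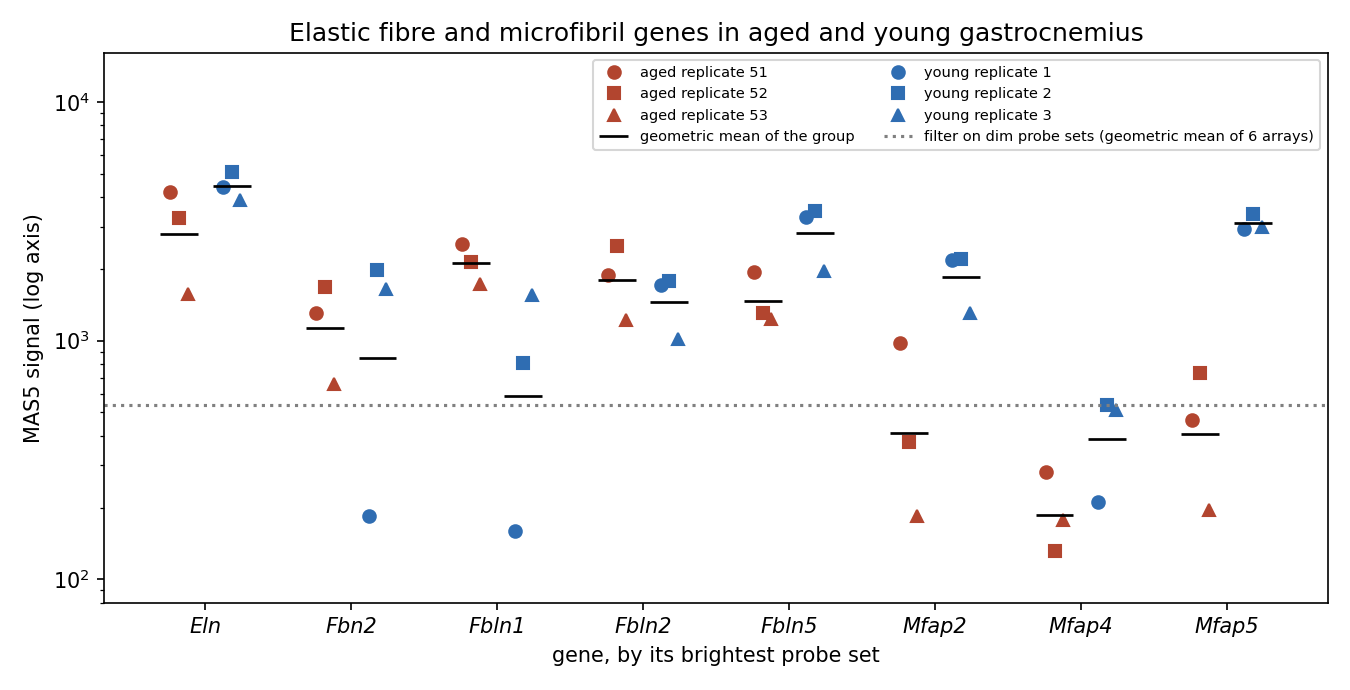
MAS5 signal (log axis) of the brightest probe set of each gene, with aged arrays to the left of young arrays, 1 point per array, and a bar at the geometric mean of each group. The 3 aged arrays lie below the 3 young arrays for Fbln5, Mfap2 and Mfap5 and above them for Fbln1, while young replicate 1 lies far below the other young arrays for Fbn2 and Fbln1.

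Of the microfibril glycoprotein genes Mfap5 passed, Mfap2 did not and Mfap4 was too dim to be tested. Mfap5 encodes a small glycoprotein, also called MAGP-2, that binds fibrillins. Its brighter probe set (1449082_at) had signals of 467, 729 and 195 on aged arrays 51, 52 and 53, against 2934, 3393 and 2983 on young arrays 1, 2 and 3. Every aged array thus lay below every young array, and the aged arrays were more spread than the young ones. The mean log2 signal was 8.66 ± 0.97 in aged muscle and 11.60 ± 0.11 in young muscle (SD, n = 3 each). The change was -2.94 ± 0.59, with a 95% interval of -4.21 to -1.66 and an adjusted p of 0.0327. The aged mean lay below the brightness needed for testing, so the probe set was tested through its young signals.

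The second Mfap5 probe set (1418454_at) had signals of 230, 199 and 340 on the aged arrays, against 1611, 668 and 2745 on the young arrays. The groups did not overlap, and the young arrays were widely spread. Its aged mean also lay below the brightness needed for testing, so that it was tested only through its young signals. Its change was -2.52 ± 0.88, and it did not pass (adjusted p = 0.314).

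The call for Mfap5 needed all 3 young arrays. Without young replicate 1, 2 or 3 the change was -2.97, -2.87 or -2.96, and the adjusted p was 0.202, 0.2 or 0.167. Among the arrays of the first station, 1 aged against 3 young, it was -2.73 (adjusted p = 0.0321, with the spread of aged muscle taken from the young arrays). With the station as a covariate the same change did not pass (adjusted p = 0.168). With the 3 prime to 5 prime ratio as a covariate the change was -1.78 (adjusted p = 0.381). This ratio was higher on every aged array than on every young array, so the parts of RNA quality and age in the result cannot be told apart.

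Mfap2 encodes MAGP-1, the close relative of the Mfap5 product on the microfibril. Its brighter probe set (1447833_x_at) had signals of 981, 377 and 185 on the aged arrays, against 2185, 2188 and 1303 on the young arrays. The groups did not overlap, and the highest aged array was the one washed with the young arrays. The aged mean log2 signal, 8.68, lay below the brightness needed for testing, so this probe set was also tested only through its young signals. The change was -2.17 ± 0.72 (95% interval -3.74 to -0.60) and did not pass (adjusted p = 0.285). It was -0.91 with the station as a covariate and -1.04 with the 3 prime to 5 prime ratio as a covariate.

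The 2 Mfap2 probe sets differed in size of change, and with the station as a covariate also in direction. The name of the brighter one ends in x_at, the platform's mark for sets prone to cross-hybridisation with other transcripts. The other (1417359_at) had signals of 1252, 171 and 631 on the aged arrays, against 807, 547 and 513 on the young arrays. There the aged arrays spanned the whole young range, and the change was -0.25 ± 0.98 (95% interval -2.38 to 1.89).

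Mfap4 encodes a fibrinogen-related glycoprotein that binds fibrillin and elastin. Its single probe set (1424010_at) was too dim to be tested. Signals were 281, 131 and 177 on the aged arrays, against 210, 540 and 514 on the young arrays. The groups overlapped through young replicate 1, and the difference of means was -1.06.

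Elastin itself gave no call. The brighter Eln probe set (1420855_at) had signals of 4204, 3256 and 1575 on the aged arrays, against 4404, 5082 and 3881 on the young arrays. Aged replicate 51 lay within the young range, and aged replicate 53 had less than any other array. The change was -0.67 ± 0.38 (95% interval -1.49 to 0.15, adjusted p = 0.588). The change of Eln was -0.26 without aged replicate 53, -0.08 with the station as a covariate and 0.17 with the 3 prime to 5 prime ratio as a covariate. The second Eln probe set (1420854_at) was below the brightness needed for testing. Its signals were 596, 250 and 129 on the aged arrays, against 165, 165 and 365 on the young arrays, and the groups overlapped.

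Fbn2 encodes fibrillin-2, the fibrillin best known from developing tissue. Its brighter probe set (1454830_at) had signals of 1311, 1670 and 659 on the aged arrays, against 185, 1969 and 1644 on the young arrays. Young replicate 1 lay far below the other young arrays, which enclosed the highest aged value. The change was 0.42 ± 0.86 (95% interval -1.45 to 2.29, adjusted p = 0.894), and without young replicate 1 it was -0.67. The other Fbn2 probe set (1422831_at) was too dim to be tested. It read 653, 90.1 and 80.8 on the aged arrays, against 49.0, 105 and 88.9 on the young arrays.

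No fibulin probe set passed. Fbln5 encodes fibulin-5, which binds elastin and LOXL1 and is needed for elastic fibre assembly in mice. Its brighter probe set (1416164_at) had signals of 1939, 1306 and 1236 on the aged arrays, against 3287, 3499 and 1950 on the young arrays. The groups did not overlap, though aged replicate 51 and young replicate 3 were almost level. The change was -0.95 ± 0.40 (95% interval -1.82 to -0.07) and did not pass (adjusted p = 0.453). It was -0.54 with the station as a covariate. The dimmer Fbln5 probe set (1446377_at), which was not tested, also separated the groups. It read 183, 197 and 247 on the aged arrays, against 864, 636 and 260 on the young arrays, a difference of -1.34.

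Fbln1 encodes fibulin-1, a glycoprotein of elastic fibres and basement membranes. Its brightest probe set (1451119_a_at) had signals of 2540, 2131 and 1723 on the aged arrays, against 160, 805 and 1550 on the young arrays. All aged arrays were above all young arrays, and the spread was mostly within young muscle. The mean log2 signal was 11.04 ± 0.28 in aged muscle and 9.19 ± 1.69 in young muscle (SD, n = 3 each). The change was 1.85 ± 0.75 (95% interval 0.22 to 3.48) and did not pass (adjusted p = 0.426). Without young replicate 1, the lowest array, it was 0.91.

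The 3 Fbln1 probe sets did not share a direction. The second (1422540_at) read 1119, 1456 and 572 on the aged arrays, against 505, 397 and 883 on the young arrays, with overlap. Its change was 0.80 ± 0.73. The third (1439688_at), which was not tested, read 111, 472 and 160 on the aged arrays, against 226, 687 and 572 on the young arrays. Its difference was -1.14, and the average over all 3 was 0.50.

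Fbln2 encodes fibulin-2, found on microfibrils and in vessel walls. Its brighter probe set (1423407_a_at) had signals of 1874, 2486 and 1224 on the aged arrays, against 1702, 1775 and 1019 on the young arrays. These groups overlapped, and the change was 0.30 ± 0.46 (95% interval -0.69 to 1.29, adjusted p = 0.851). The dimmer one (1438375_at) read 799, 510 and 614 on the aged arrays, against 195, 53.3 and 59.8 on the young arrays. All of its aged values lay above all young values, a difference of 2.88, which was the highest of the 16. Its mean over the arrays was below the brightness needed for testing, and with no such filter its adjusted p was 0.520.

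**Figure D2:**
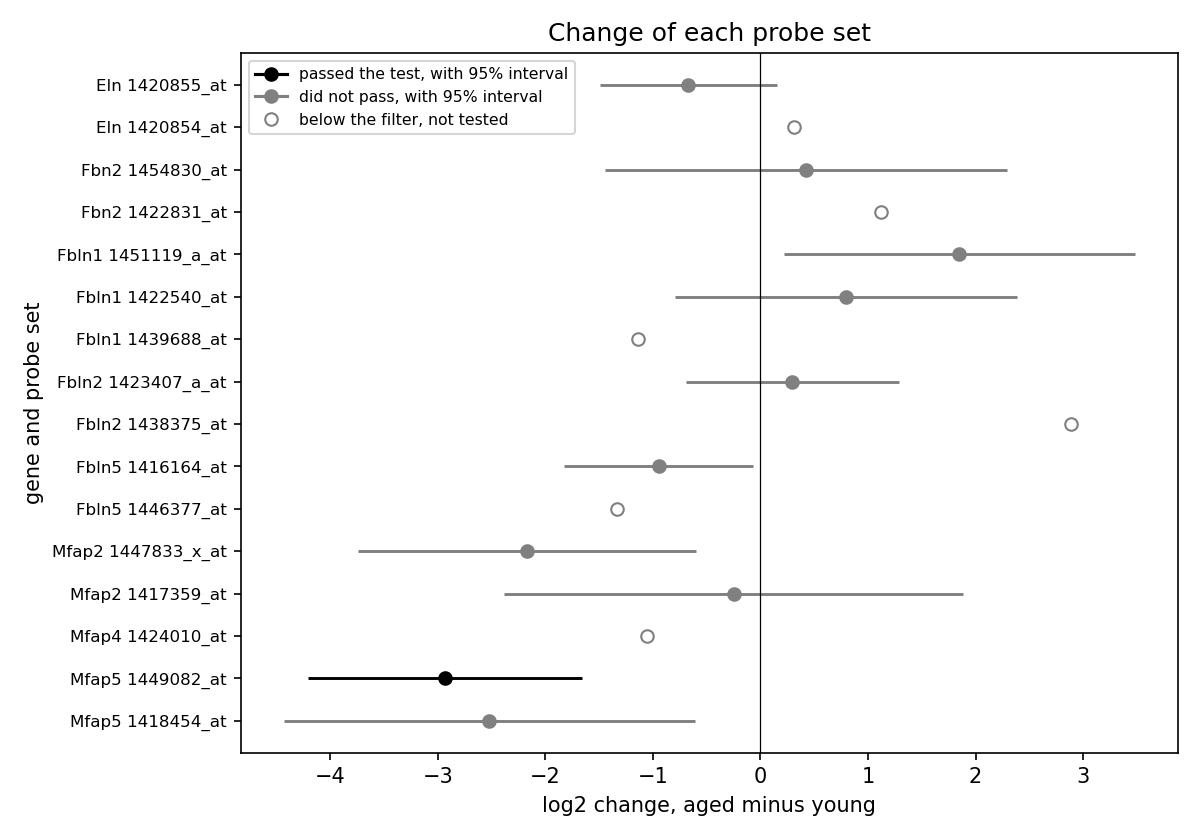
Change of each of the 16 probe sets, aged minus young on the log2 scale, with the 95% interval of each tested probe set as a line and untested dim probe sets as open points. The interval of the Mfap5 probe set that passed runs from -4.21 to -1.66, and the probe sets of Eln, Fbln1, Fbln2 and Mfap2 lie apart within each gene.

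Across the 16 probe sets the 3 aged and 3 young arrays did not overlap in 7, with aged muscle lower in 5 and higher in 2. Over all 45037 probe sets 13.2% showed no overlap, and 6.22% none with aged muscle lower. The 5 were both probe sets of Fbln5 and of Mfap5 and the brighter one of Mfap2, so they stand for 3 genes. The 2 were probe sets of Fbln1 and Fbln2.

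The change of Mfap5 was set against that of each other gene of the group by taking the difference of the 2 log2 signals on each array. Mfap5 was chosen for this after its values were seen. The difference separated aged from young arrays without overlap for 6 of 7 genes. All 7 differences use the same Mfap5 signals, whose groups did not overlap, so the 6 are not separate results. The same count over genes outside the group was not made. Mfap5 changed by -2.26 relative to Eln and by -1.99 relative to Fbln5. Relative to Mfap2 it changed by -0.77, with overlap. By a two-sided exact permutation test p was 0.1 for those 6 genes, the smallest that 3 against 3 arrays can give, and 0.3 for Mfap2 (adjusted over 7 pairs 0.117 and 0.3). This design cannot reach 0.05.

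The arrays themselves differed within both aged and young muscle. The median deviation of the 8 genes from their 6-array means was 0.20, -0.36 and -0.66 on aged arrays 51, 52 and 53, against 0.20, 0.89 and 0.54 on young arrays 1, 2 and 3. Aged replicate 51 was thus level with young replicate 1. Without aged replicate 51, 52 or 53 the median change of the 8 genes was -1.06, -0.79 or -0.54, and within the first station it was -0.27. At that station Mfap5 alone among the 8 differed by more than 1 below young muscle, and Fbln1 was 2.12 above it.

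**Figure D3:**
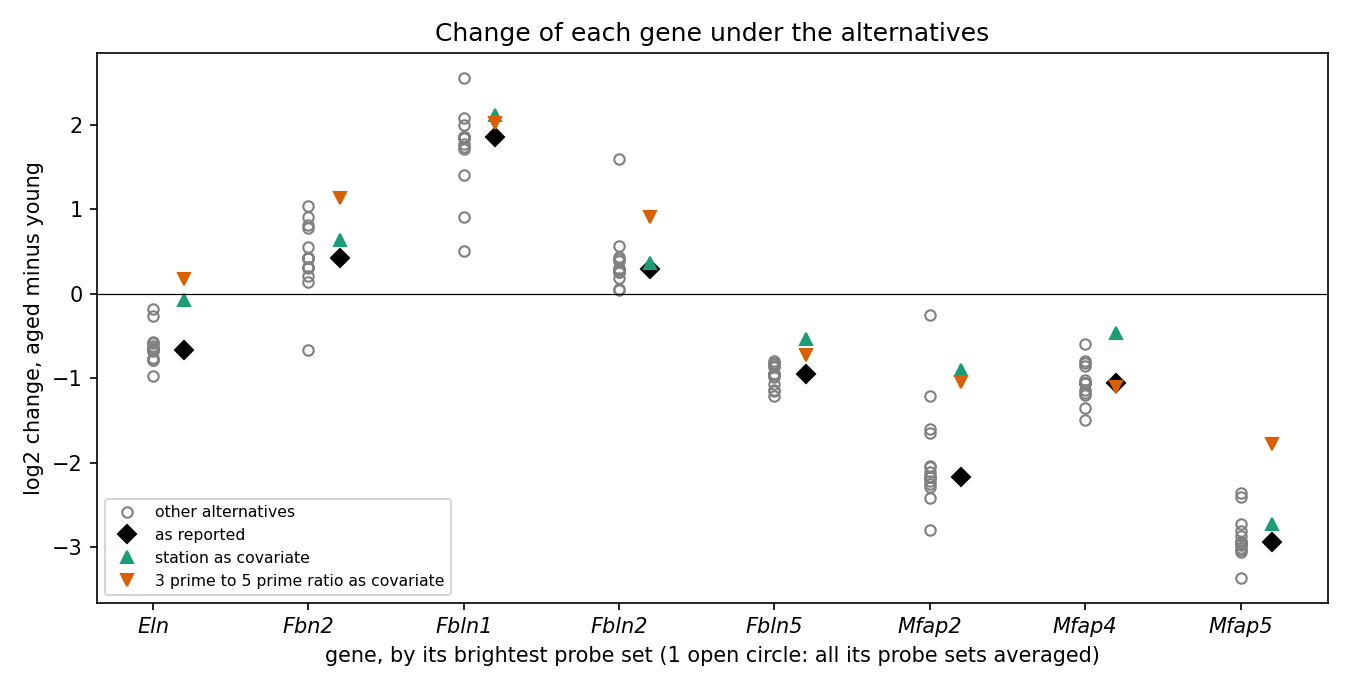
Change of each gene by its brightest probe set, aged minus young on the log2 scale, as reported (diamonds), with the station (green) or the 3 prime to 5 prime ratio (orange) as a covariate, and under the other alternatives (open circles), of which 1 averages all probe sets of a gene and, for Mfap2, 1 takes its other probe set. Mfap5 stays between -3.36 and -1.78 and Fbln1 between 0.50 (its 3 probe sets averaged) and 2.55, while Eln and Fbn2 cross 0.

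Other genes of the elastic fibre pathway were taken from 3 lists. Of 22 genes of assembly, crosslinking and fibrillin binding 21 had a named probe set and 14 were tested, of which 1 fell, 0 rose and 13 did not pass. Among all 11763 tested genes 1.00% were called lower and 0.391% higher. Changes were negative for 13 of the 21 genes, and their median was -0.19. The gene that fell was Bgn, which encodes biglycan, a proteoglycan that binds collagen and elastic fibre components. It read 2575, 1610 and 2797 on the aged arrays, against 8042, 6462 and 6825 on the young arrays, so the groups lay well apart. Its change was -1.64 ± 0.31 (adjusted p = 0.0236), and its other probe sets were at -0.83 and -0.87 and did not pass. Bgn did not pass without aged replicate 52 (adjusted p = 0.0887) or without young replicate 1, 2 or 3 (adjusted p = 0.162, 0.101 or 0.107). Nor did it with its probe sets averaged, at -1.12 (adjusted p = 0.0928). Adding the station as a covariate gave -1.46 (adjusted p = 0.147).

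The brightest genes of this list that did not pass were Ltbp3, a binding protein of latent TGF-beta (0.15 ± 0.24), and Efemp1, which encodes fibulin-3 (-0.30 ± 0.28). Lox, which encodes the lysyl oxidase that crosslinks elastin and collagen, was chosen after its values were seen. It read 2261, 1337 and 1409 on the aged arrays, against 3957, 4403 and 4758 on the young arrays. The groups did not overlap, and the change of -1.43 ± 0.35 did not pass (adjusted p = 0.0966). Its relative Loxl1, the crosslinking enzyme that works with fibulin-5 and was also chosen after its values were seen, was at -0.04 ± 0.40.

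Of 13 receptors and TGF-beta ligands 7 were tested and 0 passed, with 1 lower and 1 higher at an unadjusted p under 0.05 and a median of -0.39. Over all tested genes 6.60% were lower and 4.78% higher at that p. The gene lower at that p was Tgfb2 (-0.83 ± 0.37), a TGF-beta ligand chosen after its values were seen. The gene higher at that p was Itgb5, an integrin beta chain, at 0.92 ± 0.22 (adjusted p = 0.0971). The name of the Itgb5 probe set ends in x_at, the mark for sets prone to cross-hybridisation. Itgav, the partner of Itgb5, was at -0.43 ± 0.29. Of 13 enzymes and inhibitors of elastin breakdown 11 were tested, of which 1 rose, 0 fell and 10 did not pass, with a median of -0.34. At an unadjusted p under 0.05, 6 of them were lower and 1 was higher, beside the same 6.60% and 4.78% of all tested genes. Among the 6 was Timp1, described below, which was tested only through its young signals. Ctss rose. It encodes cathepsin S, an elastin-degrading protease of macrophages and other antigen-presenting cells. It read 23011, 14118 and 35823 on the aged arrays, against 6656, 9528 and 6882 on the young arrays. Every aged array was above every young array, and the gene was 2.99-fold higher in aged muscle (1.58 ± 0.32, adjusted p = 0.0328). Ctss did not pass without aged replicate 51 or 53 (adjusted p = 0.0736 or 0.0525) or without young replicate 1, 2 or 3 (adjusted p = 0.168, 0.0738 or 0.141). Its change was 1.46 with the arrays centred on their medians (adjusted p = 0.143). It was 0.81 with the 3 prime to 5 prime ratio as a covariate (adjusted p = 0.376), and adding the station instead gave 1.60 (adjusted p = 0.151).

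Ctsl, which encodes cathepsin L, was at -0.78 ± 0.28, and the metalloproteinase inhibitor Timp2 at -0.62 ± 0.26, and neither passed. Timp1, another inhibitor, was chosen after its values were seen. It read 303, 110 and 347 on the aged arrays, against 1170, 1565 and 2383 on the young arrays. The change was -2.85 ± 0.86 and did not pass (adjusted p = 0.214). The aged mean log2 signal of Timp1, 7.82, lay below the brightness needed for testing, so it was tested only through its young signals. Mmp12 and Elane, which encode the macrophage and neutrophil elastases and were picked with their values known, were too dim to be tested.

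**Figure D4:**
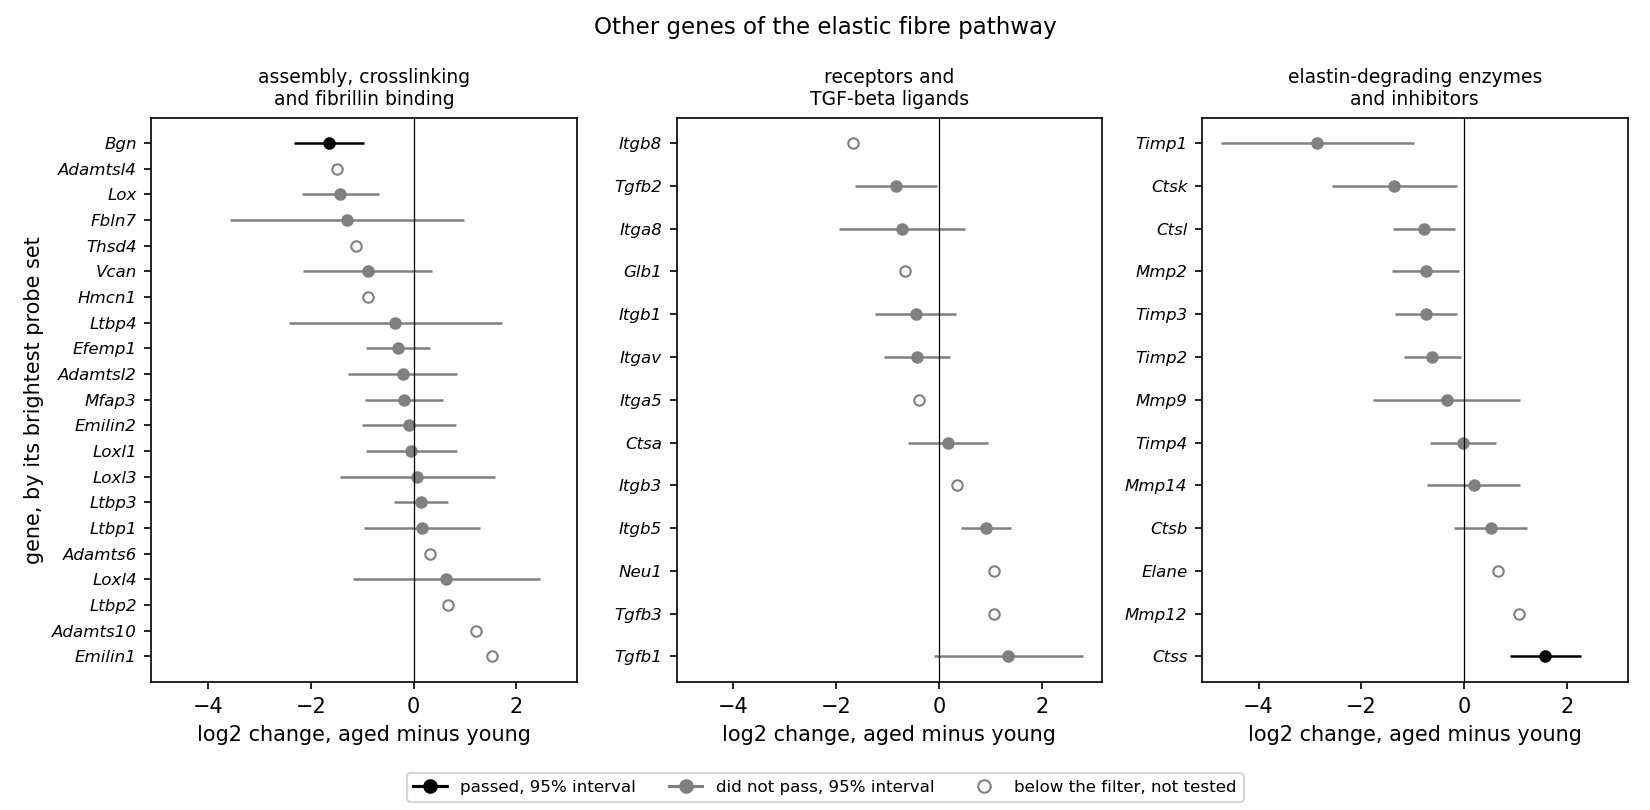
Change of the other pathway genes by their brightest probe set, aged minus young on the log2 scale, in 3 panels by list, with the 95% interval of tested genes as a line and untested dim genes as open points. Bgn (-1.64) and Ctss (1.58), in black, are the genes that passed.

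Markers of other cell types were measured on the same arrays. Among all 11763 tested genes 1.00% were called lower and 0.391% higher, and 8638 of all 18193 named genes had negative changes. Of 7 measured fibroblast markers 2 fell, Dpt (-1.13 ± 0.22) and Cd34 (-1.65 ± 0.34), the second of them picked with its values known. The brighter Gsn (0.44 ± 0.21) and Dcn (-0.73 ± 0.20) did not pass. The list's median change was -1.13, with 6 of the 7 changes negative. Its summed signal was 306654 to 350183 in aged and 323941 to 360742 in young muscle. The largest part of this sum came from Gsn, the 1 marker of the list with a positive change. Gsn read 219470, 242430 and 261999 on the aged arrays, against 182865, 191967 and 157458 on the young arrays. All 6 tendon markers had negative changes and 3 fell, Fmod (-1.46 ± 0.23), Kera (-2.40 ± 0.32) and Tnmd (-3.47 ± 0.60), the last chosen after its values were seen. The median was -1.27, with a summed signal of 20557 to 23956 in aged and 72593 to 87208 in young muscle. Of 6 smooth muscle markers 2 were tested and Acta2 fell, being 2.01-fold higher in young muscle. The name of its probe set ends in s_at, and those of Fmod and Gsn end in x_at. An alternative left out sets with these endings as prone to cross-hybridisation. Changes were negative for 4 of the 6. Myh11 (0.40) and Cnn1 (1.33), picked with their values known and too dim to be tested, were positive. The summed signal, most of it from Acta2, was 28234 to 31576 in aged and 52687 to 63288 in young muscle. For endothelial markers, of which 0 of 4 tested passed, these sums overlapped, at 6141 to 11140 in aged and 8122 to 10716 in young muscle. Muscle fibre markers had a median change of -0.58 with 0 of 8 past the test. All 8 changes were negative, and 5 were lower at an unadjusted p under 0.05, against 6.60% of all tested genes. Their summed signal was 1726674 to 1996980 in aged and 2242885 to 2625857 in young muscle. Adipocyte markers had a median of 1.76, and Adipoq (1.89 ± 0.30) and Retn (2.35 ± 0.36) rose among 4. No marker was listed at 0. The part of these cell types in the change of Mfap5, and of Bgn, was not tested.

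**Figure D5:**
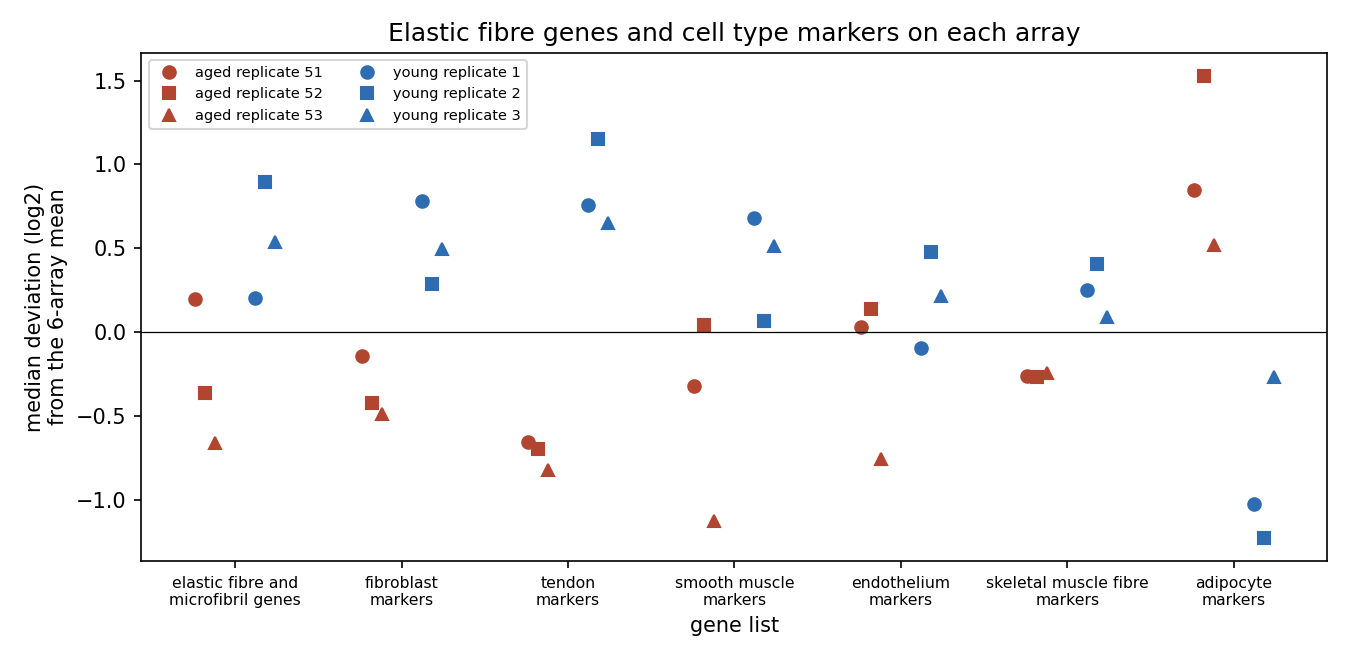
Median deviation (log2) of each gene list from its 6-array mean, 1 point per array, with aged arrays to the left of young arrays. Fibroblast, tendon and muscle fibre markers are lower and adipocyte markers higher on all 3 aged arrays. Smooth muscle markers are lower too, though aged replicate 52 (0.04) and young replicate 2 (0.06) are almost level. For the elastic fibre and microfibril genes aged replicate 51 and young replicate 1 lie level, at 0.20.

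The pattern over the 6 arrays most like the mean z-score of the 7 tested genes of the group was sought among all other tested genes. The 5 with the highest Pearson correlation were Smc1a (0.994), Omg (0.988), Eno4 (0.988), Pold1 (0.986) and Tubb6 (0.985). All 5 rest on 6 points that share the same arrays and their scaling. None of the 5 passed the test of aged against young, with changes between -0.88 and -0.14.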

How the data were processed

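The deposited table holds linear intensities of probe sets that the authors computed, with MAS5 named in the submitters' processing notes. The sources used here state neither its version nor its settings. Each array's mean after trimming 2% at each end was 1500. The deposited run settings, per the file headers, gave the fluidics station. The number of arrays limits the precision, and dim MAS5 signals vary more on the log scale.

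Intensities were taken to log2, 64 control probe sets were left out, and probe sets with a mean log2 signal below the median, 9.08, were not tested. Aged and young were compared over the 22519 others with limma 3.58.1 in R 4.3.3 (lmFit, eBayes with trend, two-sided, Benjamini-Hochberg). A gene was taken at its brightest probe set. The steps were tested on simulated data. Symbols came from the platform's gene table, which names 1 symbol for 34945 probe sets and several for 932.

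The genes, lists, tests and alternatives were chosen with earlier results of these data known. The text names all members, list genes that passed, the 2 brightest of each list that did not, and up to 3 of the brightest markers of a list. Genes outside this rule are marked as chosen with their values known. The 19 alternatives were quantile normalization, median centring, other filters, a pseudocount of 219, array weights, eBayes without trend or robust, probe sets left out or averaged, the station and RNA quality covariates, the first station alone, and each array left out. Figures were drawn with matplotlib 3.10.9.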

Additional observations from a re-analysis of the deposited data

How the results depend on the processing

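No paired analysis was possible because the aged and young arrays share no replicate number. The count of elastic fibre and microfibril probe sets past the test, 1 as reported, stayed at 1 in 12 of 19 alternatives. It was 0 with eBayes without trend, with probe sets of a gene averaged, with the station as a covariate and with the RNA quality covariate, and 0 to 1 with 1 array left out. The median change of the 8 genes was -0.27 with the station as a covariate and in the first station alone, -0.28 with the RNA quality covariate, and -1.06 to -0.54 with 1 array left out. The count of other pathway genes past the test, 2 as reported, was 0 with median centring, without the trend, with the station as a covariate and with RNA quality as a covariate. It was 1 with probe sets averaged and in the first station alone, and 0 to 2 with 1 array left out. Eln was at 0.17 with the RNA quality covariate and Fbn2 at -0.67 to 1.04 with 1 array left out, below 0 only without young replicate 1. The other 6 genes of the group kept their direction in all 19, though the second Mfap2 probe set was at 1.04 with the station as a covariate. Mfap5 kept its call in 12, with adjusted p between 0.0152 and 0.381 over the 19. The cause of these differences was not tested. Median centring moved the median change of all named genes to -0.07, against 0.05 as deposited. The median standard error of a change over all tested probe sets was 0.56.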
